A study of Homo sapiens with 12 samples.

Results

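The genes described here are 8 transcription factors of the noradrenergic core regulatory circuit of neuroblastoma: PHOX2A, ISL1, GATA2, GATA3, TBX2, TFAP2B, INSM1 and CASZ1. They were taken from the deposited expression table by gene symbol, 8 of the 27514 genes listed, as members of the sympathoadrenal circuit other than HAND2 and MYCN. RNA was sequenced from IMR32, an established human neuroblastoma cell line in which the MYCN gene is amplified. The cells were electroporated with small interfering RNAs and kept in growth medium for 72 h. The 4 groups, each of 3 samples, are named siCtrl for the control siRNA, siMYCN and siHAND2 for the gene that was targeted, and combined knockdown where both siRNAs were given together. The design asks how the level of each gene moves when MYCN, HAND2 or both are reduced. All samples are of 1 cell line, each target carries a single siRNA label, and nothing states that the replicates came from separate cultures, so p-values measure the spread between these samples, which may be technical. In bulk RNA, fewer cells with a transcript and less transcript per cell cannot be told apart.

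A core regulatory circuit is a small set of transcription factors that bind the enhancers of their own genes and of each other's, and that together hold a cell type's identity. In noradrenergic neuroblastoma the circuit resembles that of embryonic sympathetic neuroblasts, where PHOX2A, HAND2, GATA2, GATA3, ISL1 and INSM1 act in the steps from neural crest cell to noradrenergic neuron. HAND2 and MYCN are basic helix-loop-helix proteins that bind E-box sequences with a partner protein, and each is thought to occupy enhancers or promoters together with other factors of this circuit.

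Expression was given as CPM (reads of a gene, scaled to a fixed total of library reads), at an estimated depth of 31.6 to 64.2 M reads per sample, where 3 reads correspond to 0.0468 to 0.0949 CPM. The share of reads that fell in listed genes was 64.3% to 65.8% with siCtrl, 61.3% to 63.3% with siMYCN, 56.8% to 61.4% with siHAND2 and 44.3% to 58.4% with both siRNAs (58.4%, 51.4% and 44.3% in replicates 1, 2 and 3). CPM values move with this share. Against siCtrl, the median log2 change over the 12680 genes tested was −0.28 for the combined knockdown, −0.14 for siHAND2 and 0.006 for siMYCN. It was 0.047, 0.013 and 0.014 after each sample was divided by the median of its genes' ratios to their geometric means. Changes are therefore given on both scales, as deposited and rescaled. HAND2 had 239 CPM with siCtrl, 326 with siMYCN, 62.3 with siHAND2 and 73.5 with both siRNAs, and MYCN had 1009, 682, 849 and 482 CPM. Of 8 sympathoadrenal markers, which include the members PHOX2A and ISL1, 7 had a mean of at least 1 CPM. TH, the enzyme of the rate-limiting step of catecholamine synthesis, was however at 0.120 CPM in siCtrl, and DBH, which makes noradrenaline, was at 2.65 CPM. With siMYCN, siHAND2 and both siRNAs TH had means of 0.350, 1.07 and 1.585 CPM, and DBH 7.99, 0.929 and 0.942 CPM. The summed CPM of the 8 markers was 350 to 370 with siCtrl and 626 to 649 with siMYCN. It was 508 to 530.5 with siHAND2 and 538 to 816 with both siRNAs. Much of it was ELAVL4, with means of 125, 216, 185 and 229 CPM in siCtrl, siMYCN, siHAND2 and the combined knockdown. CHGA had 99.5, 128, 171 and 129 CPM, and STMN2 4.00, 81.1, 26.6 and 159 CPM. The sum hides opposite moves. With siHAND2 and with both siRNAs the means of PHOX2A and DBH were below siCtrl and those of the other markers above it.

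The members differed widely in level in siCtrl. Per kilobase of annotated exon, PHOX2A had 38.4 ± 2.98 CPM (SD, n = 3), INSM1 17.3 ± 1.94, TBX2 10.7 ± 0.65, GATA3 9.62 ± 0.93 and ISL1 7.55 ± 0.33. GATA2 stood at 0.564 ± 0.064 CPM per kilobase and CASZ1 at 0.184 ± 0.043, and TFAP2B was at 0.003. In this order the samples of TBX2 and GATA3 overlapped, and those of the other neighbours did not. PHOX2A led the order in siCtrl and siMYCN (64.7 CPM per kilobase), whereas in siHAND2 INSM1 had 31.5, ISL1 16.7, and PHOX2A 8.97 CPM per kilobase.

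Each gene was tested with limma on log2(CPM + 1) over all 12 samples, and a gene is termed called when its adjusted p was under 0.05. Of the 8 members, 7 had a mean CPM of at least 1 and were tested; TFAP2B was not. In siMYCN against siCtrl 4 members were called higher (PHOX2A, TBX2, ISL1 and GATA3) and 0 lower, with 17.4% of all genes tested called higher and 16.3% lower. In siHAND2 3 were called higher (ISL1, CASZ1 and INSM1) and 1 lower (PHOX2A), with 12.3% of all genes called higher and 30.4% lower. The combined knockdown gave the same 4 names in the same directions, with 17.4% of all genes higher and 50.1% lower. On the rescaled values 25.4% of genes were called higher and 22.4% lower in siMYCN, 26.0% and 24.8% in siHAND2, and 37.8% and 32.9% in the combined knockdown. The members' counts on that scale were 4 higher in siMYCN, 4 higher and 1 lower in siHAND2 (GATA2 added), and 6 higher and 1 lower in the combined knockdown. The median change of the 7 tested members was 0.48, 0.27 and 0.08 as deposited and 0.49, 0.39 and 0.44 rescaled.

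**Figure D1:**
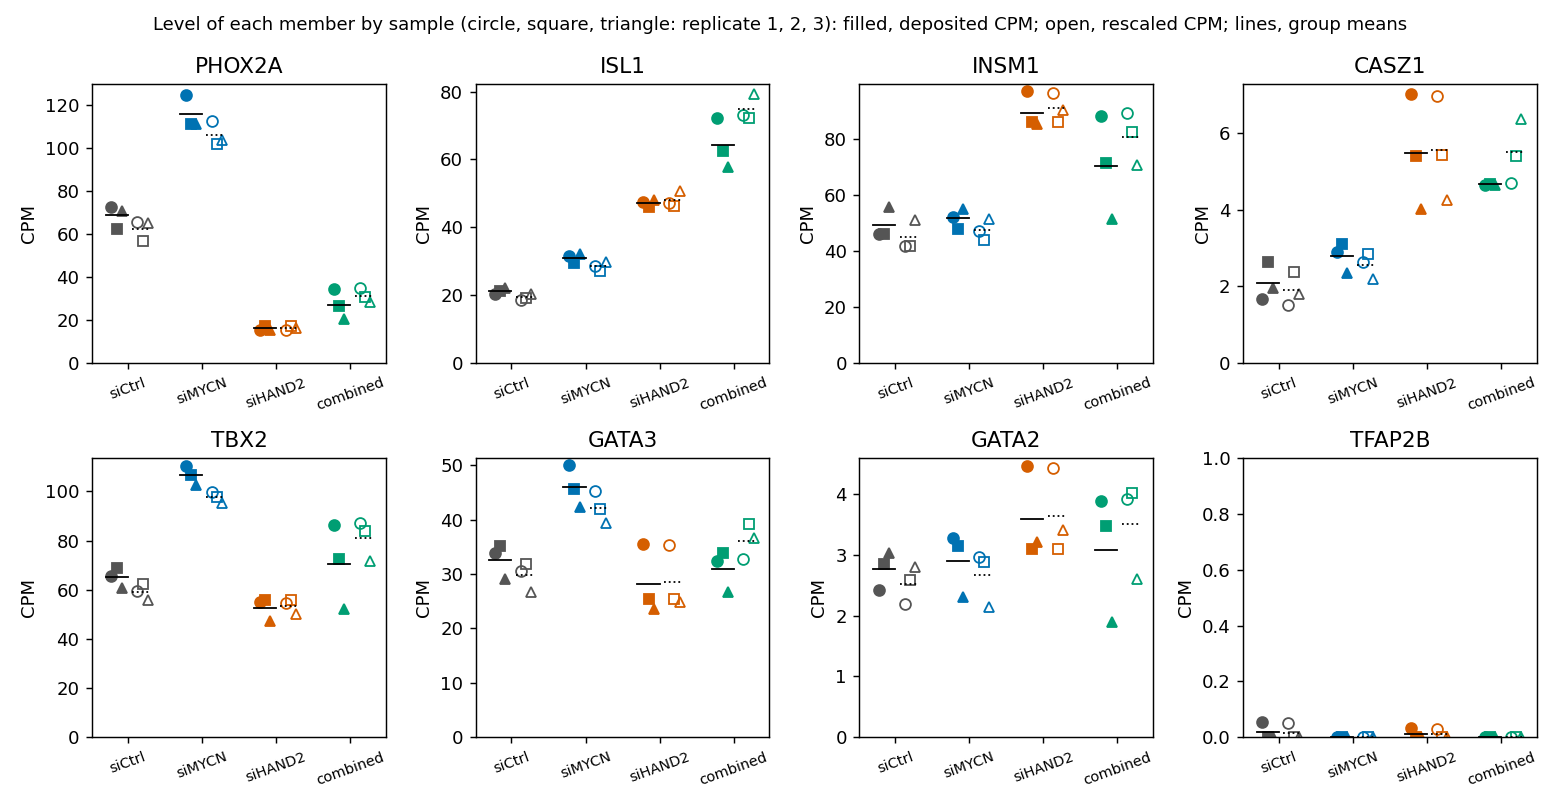
Level in CPM of the 8 members in each of the 12 samples by group, with filled symbols for the deposited values, open symbols for the rescaled values, the marker shape for the replicate number, and solid and dotted lines for the group means. PHOX2A lies between 15.4 and 17.2 CPM in siHAND2 against 62.4 to 72.3 in siCtrl, ISL1 lies highest in the combined knockdown, and TFAP2B lies near 0 in all samples on an axis that ends at 1 CPM.

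PHOX2A and ISL1, both homeodomain factors, were at separate levels in all 4 groups, and they moved in opposite directions when HAND2 was reduced. The share of all genes whose groups do not overlap was not counted. Statements here that groups did not overlap therefore describe the named genes and do not set them apart from other genes. PHOX2A is a paired-like homeodomain protein that switches on noradrenaline-synthesis genes and is needed for noradrenergic neurons to form. ISL1 is a LIM-homeodomain protein that acts in sympathetic and motor neuron differentiation. PHOX2A is on the minus strand of chromosome 11 at 71950121 to 71955221, and ISL1 on the plus strand of chromosome 5 at 50678958 to 50690564 (hg19, as all gene positions here). Both are protein-coding genes.

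The 250 bases before the RefSeq transcription start of each are shown because the 4 groups of both genes were separate, because the genes moved in opposite directions in siHAND2, and because MYCN and HAND2 are E-box binding proteins. The capitals mark E-boxes, the letters CANNTG (read on either strand, the motif being its own reverse complement). The PHOX2A window is chr11:72244177-72244426 (minus strand) and the ISL1 window chr5:51383198-51383447 (plus strand), both in GRCh38.p14.
PHOX2A: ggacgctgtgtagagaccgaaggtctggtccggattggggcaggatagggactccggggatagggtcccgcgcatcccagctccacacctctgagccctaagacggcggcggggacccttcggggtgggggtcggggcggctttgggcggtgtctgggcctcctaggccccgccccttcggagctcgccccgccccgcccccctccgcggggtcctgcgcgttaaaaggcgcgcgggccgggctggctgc
ISL1: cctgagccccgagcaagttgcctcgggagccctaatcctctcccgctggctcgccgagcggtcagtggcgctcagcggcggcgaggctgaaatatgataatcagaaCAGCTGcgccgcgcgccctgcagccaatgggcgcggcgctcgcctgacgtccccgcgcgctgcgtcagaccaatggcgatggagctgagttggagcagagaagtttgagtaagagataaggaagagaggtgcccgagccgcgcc
The PHOX2A window held 0 E-boxes. The ISL1 window held 1, which begins 144 bases before the start and has the central letters G and C. Of 35116 RefSeq windows of the same length, 61.8% held at least 1 CANNTG. The form CACGTG, which MYC family proteins are known to prefer, is in 6.34% of all windows and in neither of these. Of the other members' windows, that of the third of the 6 GATA3 starts held 1 CACGTG, which begins 64 bases before the start. The word GATAA of the GATA factors, searched on both strands, occurred 2 times in the ISL1 window and 0 times in that of PHOX2A, and 20.4% of all windows held it. A homeodomain core word, TAAT on either strand, which can overlap the GATA word, likewise occurred 2 times and 0 times, and 47.4% of all windows held it. PHOX2A's window is 73.2% G and C and ISL1's 65.2%. These are matches of letters in a short window, and whether any factor occupies them was not measured.

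PHOX2A had 72.3, 62.4 and 70.8 CPM in the 3 siCtrl samples and 124, 111 and 111 in the siMYCN samples. It had 15.4, 17.2 and 15.4 CPM in siHAND2 and 34.4, 26.3 and 20.5 in the combined knockdown. The 4 groups did not overlap in any of their 6 pairs, and the order was siHAND2, combined, siCtrl, siMYCN from lowest to highest. The siHAND2 mean was 23.4% of the siCtrl mean (26.1% rescaled). The log2 change was −2.03 (SE 0.14, limma adjusted p 9.4e-12; −1.87 rescaled). In siMYCN PHOX2A rose to 169% of siCtrl, a log2 change of 0.75 (SE 0.14, limma adjusted p 1.3e-04; 0.76 rescaled). In the combined knockdown it stood at 39.5% of siCtrl (49.8% rescaled), a change of −1.33 (limma adjusted p 3.4e-09; −0.98 rescaled). It was 0.70 higher on the log2 scale in the combined knockdown than in siHAND2 (limma adjusted p 2.3e-04; 0.89 rescaled) and changed by −2.08 against siMYCN (limma adjusted p 3.2e-12; −1.74 rescaled). PHOX2A shares 71 exon bases, 3.98% of its exon length, with INPPL1 on the other strand, and whether reads were counted by strand is not given in the sources used here. INPPL1 had group means of 28.4, 27.1, 24.4 and 22.9 CPM, an order that differs from PHOX2A's.

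ISL1 had 20.4, 21.2 and 22.2 CPM with siCtrl, 31.6, 29.4 and 32.1 with siMYCN, 47.5, 46.0 and 48.0 with siHAND2, and 72.3, 62.4 and 57.8 with both siRNAs. It was the one tested member called higher in every knockdown against siCtrl as deposited, and its groups also did not overlap in any pair. Its mean was 3.02-fold that of siCtrl in the combined knockdown, 2.22-fold in siHAND2 and 1.46-fold in siMYCN (386%, 248% and 147% of siCtrl rescaled). The log2 changes were 1.54 (SE 0.11, limma adjusted p 4.5e-12), 1.11 (limma adjusted p 9.7e-09) and 0.52 (limma adjusted p 5.4e-04). The combined knockdown exceeded siHAND2 by 0.43 (limma adjusted p 0.0027; 0.63 rescaled) and siMYCN by 1.02 (limma adjusted p 1.9e-08; 1.36 rescaled). A listed noncoding gene, LOC642366, overlaps ISL1 by its listed position on the other strand and moved the same way, from 8.94 CPM in siCtrl to 15.0, 19.3 and 25.2 CPM. The changes of LOC642366 were 0.68, 1.03 and 1.40, all called. Its exon overlap with ISL1 was not measured. In the annotation used for exon overlaps, the gene found there on the other strand, ISL1-DT, shares 0 exon bases with ISL1. Without knowledge of the strand setting, reads of LOC642366 and ISL1 cannot be told apart wherever the 2 genes overlap.

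**Figure D2:**
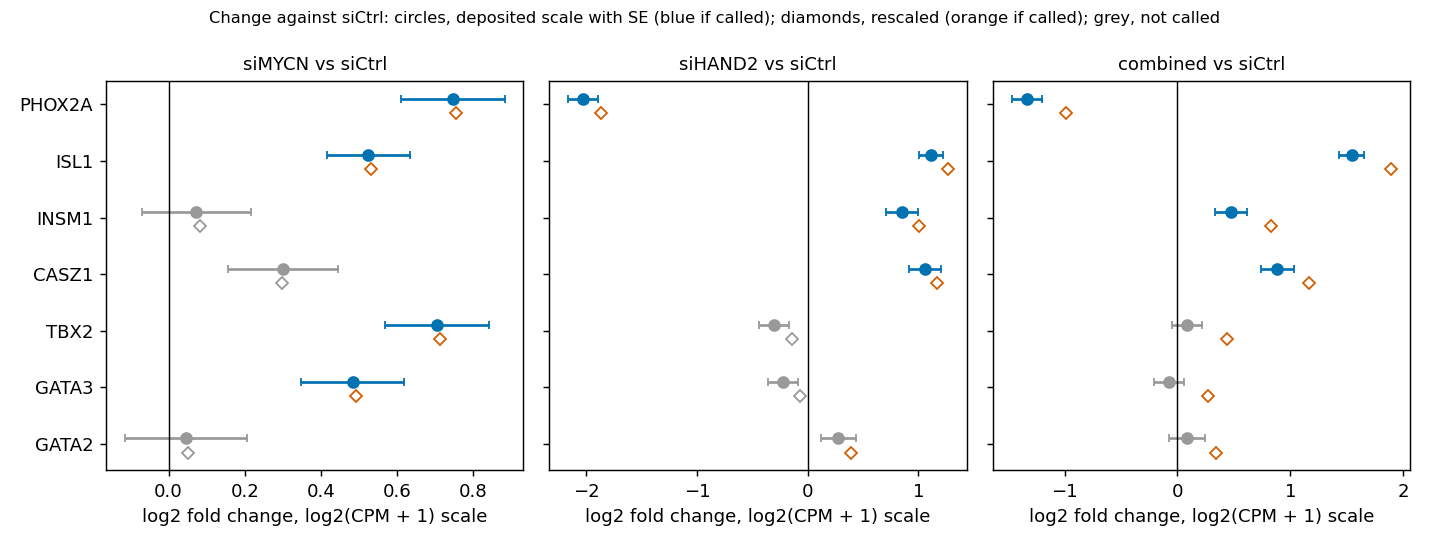
Log2 fold change of the 7 tested members against siCtrl on the log2(CPM + 1) scale in siMYCN, siHAND2 and the combined knockdown, with circles and SE bars for the deposited scale, diamonds for the rescaled values, colour for called and grey for not called; the horizontal axes differ between the panels. PHOX2A stands at 0.75, −2.03 and −1.33, ISL1 is called higher in all 3 panels, and the rescaled diamonds lie to the right of the circles in the siHAND2 and combined panels.

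Within a sample the ratio of 2 genes does not depend on the scale. The PHOX2A to ISL1 ratio of CPM was 3.54, 2.94 and 3.18 in siCtrl and 3.94, 3.77 and 3.47 in siMYCN. It was 0.325, 0.373 and 0.321 in siHAND2 and 0.475, 0.421 and 0.355 in the combined knockdown. The ratio averaged 3.22 ± 0.30 (SD, n = 3) in siCtrl, 0.340 ± 0.029 in siHAND2 and 0.417 ± 0.060 in the combined knockdown. By geometric means siCtrl was 9.48-fold siHAND2 and 7.76-fold the combined knockdown. There was no overlap in either case (two-sided exact permutation p 0.1, the smallest that 3 against 3 samples allow). This follows from the values above, since in both comparisons PHOX2A was lower and ISL1 higher without overlap. The test therefore adds nothing separate. The siMYCN and siCtrl ratios overlapped (exact permutation p 0.2), as did those of the combined knockdown and siHAND2 (exact permutation p 0.2). Each siMYCN ratio was however above the siCtrl ratio of the same replicate number, which this unpaired test does not use.

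PHOX2A was also set against HAND2 itself, a ratio chosen after its values were seen. The PHOX2A to HAND2 ratio was 0.287 ± 0.033 (SD, n = 3) in siCtrl and 0.259 ± 0.029 in siHAND2, a siHAND2 mean 0.902-fold that of siCtrl, and the samples of these groups overlapped (exact permutation p 0.5). It was 0.355 ± 0.026 in siMYCN and 0.365 ± 0.052 in the combined knockdown (exact permutation p 0.8). The siMYCN ratio exceeded that of siCtrl by 1.24-fold and the combined ratio that of siHAND2 by 1.41-fold, in both cases without overlap (exact permutation p 0.1). HAND2 itself was higher in siMYCN than in siCtrl by 0.44 (limma adjusted p 0.0062), and its direction was thus the same as that of PHOX2A.

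**Figure D3:**
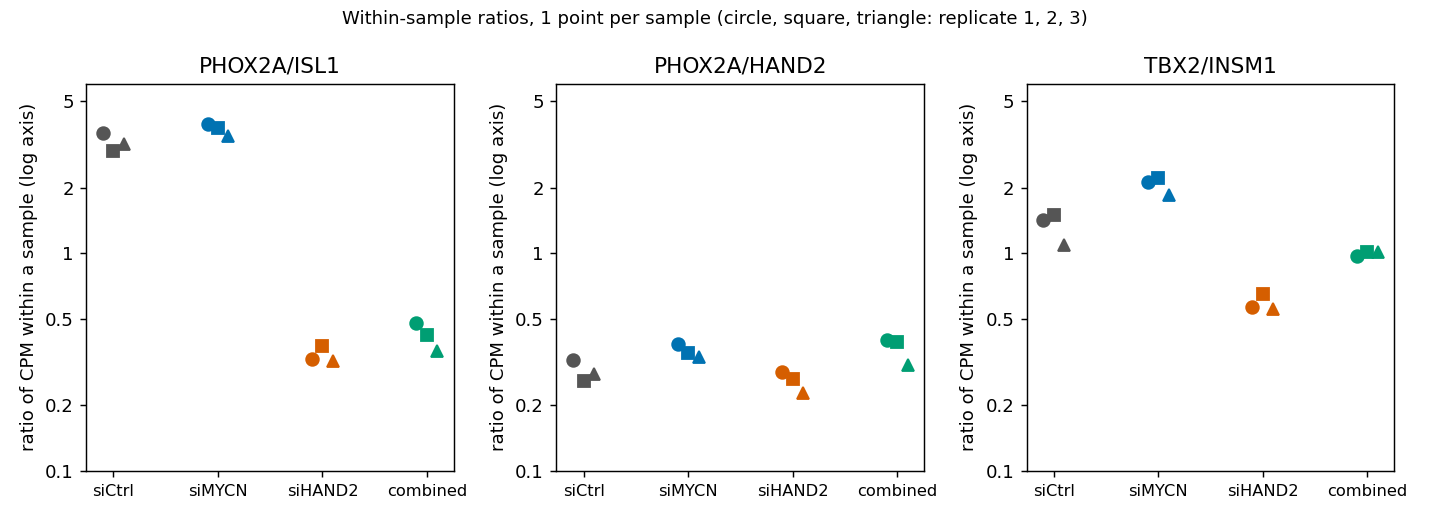
Ratio of CPM within each sample for PHOX2A to ISL1, PHOX2A to HAND2 and TBX2 to INSM1, on a log axis, with 1 point per sample and the marker shape for the replicate number. The PHOX2A to ISL1 ratio is at least 2.94 in the siCtrl and siMYCN samples and at most 0.475 in the siHAND2 and combined samples, while the PHOX2A to HAND2 ratio stays between 0.228 and 0.399 in all 12.

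INSM1 and CASZ1, both zinc finger factors, were higher when HAND2 was reduced and were not called when MYCN alone was reduced. INSM1 is a repressor that drives the differentiation of neuroendocrine cells, chromaffin cells among them, and CASZ1 promotes differentiation and is described as a growth suppressor in neuroblastoma. INSM1 lies on chromosome 20 at 20348765 to 20351593 (plus strand, a single exon), and CASZ1 spans a stretch of chromosome 1 at 10696666 to 10856734 (minus strand).

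INSM1 had 46.3, 46.1 and 55.7 CPM in siCtrl and 52.2, 48.1 and 55.2 in siMYCN, and these groups overlapped (0.07, limma adjusted p 0.73). It had 97.2, 86.0 and 85.4 CPM in siHAND2, all above every siCtrl sample, a rise of 0.85 (SE 0.14, limma adjusted p 3.2e-05; 1.01 rescaled). In the combined knockdown it had 88.5, 71.5 and 51.5 CPM, a rise of 0.48 (limma adjusted p 0.0049; 0.83 rescaled), with replicate 3 inside the range of siCtrl. Without combined replicate 1 the INSM1 rise was 0.30 (limma adjusted p 0.044), and the rescaled values of the combined samples all lay above siCtrl. Against siMYCN the combined value of INSM1 was higher by 0.40 (limma adjusted p 0.018; 0.75 rescaled), a call that was lost without siMYCN replicate 2 (adjusted p 0.076) and without combined replicate 1 (0.12) or 2 (0.058). Against siHAND2 it changed by −0.37 (limma adjusted p 0.040), which was not called after rescaling (−0.17, limma adjusted p 0.14). That call was also lost without combined replicate 2 (adjusted p 0.065) or 3 (0.22), without siHAND2 replicate 1 (0.13) or 2 (0.070), and without siCtrl replicate 2 (0.052).

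CASZ1 had 1.68, 2.62 and 1.97 CPM with siCtrl, 2.90, 3.11 and 2.35 with siMYCN, 7.03, 5.41 and 4.02 with siHAND2, and 4.66, 4.69 and 4.66 with both siRNAs. These low values rest on an estimated 61 to 299 reads per sample. Every siHAND2 and combined sample lay above every siCtrl and siMYCN sample. CASZ1 rose by 1.05 in siHAND2 (SE 0.14, limma adjusted p 2.0e-06; 1.16 rescaled) and by 0.89 in the combined knockdown (limma adjusted p 7.0e-06; 1.17 rescaled), folds of 2.62 and 2.23 in mean CPM. The siMYCN change of 0.30 was not called (limma adjusted p 0.11), and siMYCN and siCtrl overlapped. Each siMYCN sample was however above the siCtrl sample of the same replicate number. With the replicate number added to the fit the change was still not called (limma adjusted p 0.062). The siHAND2 and combined samples overlapped, and no difference between them was called (−0.17, limma adjusted p 0.37; 0.00099 rescaled). An unnamed noncoding gene of the annotation shares 3656 bases, 32.2% of the exon length, with CASZ1 on the other strand and was not analysed here.

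TBX2 and GATA3 rose in siMYCN, and their deposited levels were lower again when HAND2 was also reduced, for TBX2 on both scales. TBX2 is a T-box repressor that is part of the circuit in neuroblastoma and promotes proliferation there, and GATA3 is a zinc finger factor required for sympathetic neurons to form and to make noradrenaline. TBX2 lies on chromosome 17 at 59477257 to 59486828 (plus strand) and GATA3 on chromosome 10 at 8096667 to 8117165 (plus strand).

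TBX2 had 65.6, 68.7 and 60.8 CPM with siCtrl, 110, 107 and 102 with siMYCN, 54.9, 55.8 and 47.2 with siHAND2, and 86.2, 72.5 and 52.4 with both siRNAs. Each siMYCN sample was above every other sample, and each siHAND2 sample was below every siCtrl sample. The rise in siMYCN was 0.70 (SE 0.14, limma adjusted p 2.6e-04; 0.71 rescaled). The siHAND2 value of −0.30 was not called over all 12 samples (limma adjusted p 0.074; −0.15 rescaled), and was called when only those groups were fitted (adjusted p 0.0072), without combined replicate 1 (0.025) and without combined replicate 3 (0.0052). In the combined knockdown TBX2 overlapped siCtrl (0.08, limma adjusted p 0.60). The rescaled TBX2 samples there all lay above siCtrl (0.44, limma adjusted p 7.2e-05), and without combined replicate 3 the deposited value was called too (0.28, adjusted p 0.014). Against siMYCN the combined value changed by −0.62 (limma adjusted p 4.3e-04; −0.27 rescaled, still called).

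GATA3 had 33.8, 35.1 and 29.1 CPM in siCtrl and 50.0, 45.7 and 42.3 in siMYCN, without overlap, a rise of 0.48 (SE 0.14, limma adjusted p 0.0074; 0.49 rescaled). That call was lost without siCtrl replicate 3 (0.40, adjusted p 0.052). It had 35.6, 25.4 and 23.5 CPM in siHAND2 and 32.4, 33.9 and 26.6 in the combined knockdown, and both groups overlapped siCtrl. Their GATA3 changes were −0.22 (limma adjusted p 0.19) and −0.08 (limma adjusted p 0.63). Without siHAND2 replicate 1, the highest sample of its group, the siHAND2 change was −0.40 (adjusted p 0.022). For the combined knockdown the rescaled GATA3 value had the opposite sign, 0.27 (limma adjusted p 0.045). Against siMYCN the combined value was −0.56 (limma adjusted p 0.0011), and after rescaling −0.22 (limma adjusted p 0.12), which was not called. The GATA3 to TBX2 ratio within a sample was 0.501 ± 0.020 (SD, n = 3) with siCtrl, 0.431 ± 0.020 with siMYCN, 0.534 ± 0.10 with siHAND2 and 0.451 ± 0.068 with both siRNAs, and the siHAND2 and combined ratios overlapped those of siCtrl (exact permutation p 0.9 and 0.2).

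The ratio of TBX2 to INSM1, a pair chosen after the calls of both genes were seen and given here as a description, was 1.33 ± 0.21 (SD, n = 3) with siCtrl, 2.06 ± 0.19 with siMYCN, 0.589 ± 0.052 with siHAND2 and 1.00 ± 0.024 with both siRNAs. The combined samples had ratios of 0.974, 1.01 and 1.02, although TBX2 ranged from 52.4 to 86.2 CPM and INSM1 from 51.5 to 88.5 CPM among them.

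GATA2 and TFAP2B were the weakly expressed members. GATA2 is the close relative of GATA3 and also acts in sympathetic neuron development, and TFAP2B is an AP-2 factor of neural crest derivatives whose loss of expression in neuroblastoma has been tied to a less differentiated state. GATA2 is a minus-strand gene on chromosome 3 at 128198265 to 128212031, and TFAP2B is on chromosome 6 at 50786439 to 50815327 (plus strand). GATA2 had 2.42, 2.85 and 3.03 CPM with siCtrl, 3.27, 3.14 and 2.31 with siMYCN, 4.46, 3.09 and 3.21 with siHAND2, and 3.88, 3.47 and 1.90 with both siRNAs, an estimated 78 to 249 reads per sample. The siHAND2 samples lay just above the siCtrl samples and the other groups overlapped siCtrl. No GATA2 change was called as deposited (0.05, 0.27 and 0.08 against siCtrl, limma adjusted p 0.86, 0.17 and 0.65). After rescaling 0.39 in siHAND2 (limma adjusted p 0.037) and 0.34 in the combined knockdown (limma adjusted p 0.047) were called. The antisense gene GATA2-AS1, which shares 78 exon bases with GATA2, had group means of 0.196 to 0.477 CPM. TFAP2B was listed at 0 in 10 of the 12 samples, at 0.0551 CPM in siCtrl replicate 1 and at 0.0317 CPM in siHAND2 replicate 1, which correspond to 2 reads and 1 read. Both values are under the 3 reads that a count of 0 allows for, so no TFAP2B level was detectable at this depth in any group.

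The remaining contrasts placed the knockdowns against each other. In the combined knockdown against siMYCN 3 members were called higher (ISL1, CASZ1 and INSM1) and 3 lower (PHOX2A, TBX2 and GATA3), with 8.92% of all genes called higher and 50.0% lower. After rescaling the members' counts were 3 higher and 2 lower, GATA3 no longer being called, with 30.1% and 26.5% of all genes. Against siHAND2 3 were called higher (PHOX2A, ISL1 and TBX2) and 1 lower (INSM1), with 8.75% higher and 31.5% lower among all genes. After rescaling 4 were called higher (GATA3 added) and 0 lower, with 26.1% and 23.6% of all genes. The TBX2 difference there, 0.39 (limma adjusted p 0.026), was not called without siHAND2 replicate 3 (adjusted p 0.11) or without combined replicate 1 (0.12) or 2 (0.087). In siMYCN against siHAND2 3 were higher (PHOX2A by 2.78, TBX2 by 1.01 and GATA3 by 0.71) and 3 lower (INSM1 with −0.78, CASZ1 with −0.76 and ISL1 with −0.59), with 26.1% and 8.98% of all genes called. These 6 differences were called on both scales, and 22.3% and 22.2% of all genes were called after rescaling. The contrasts share samples with those against siCtrl and are not independent of them. Between the combined and the single knockdowns the level of the shared target also differed, as given below with the interactions.

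**Figure D4:**
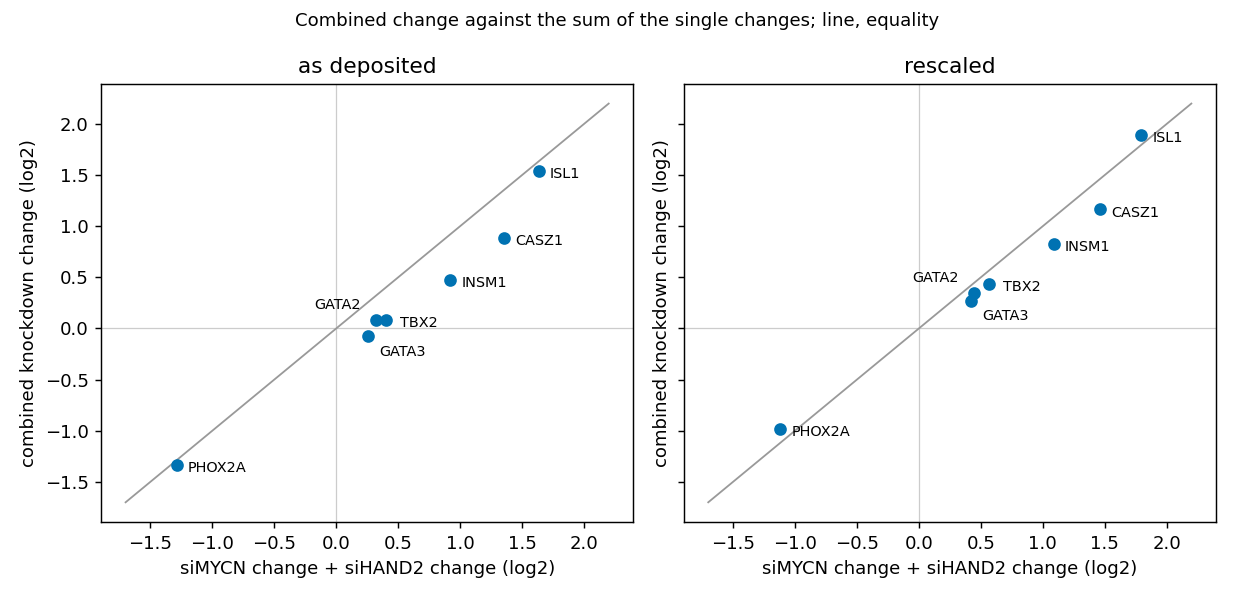
Combined log2 fold change of the 7 tested members against the sum of the siMYCN and siHAND2 changes, as deposited and rescaled, with a line of equality. As deposited PHOX2A (−1.28 and −1.33) and ISL1 (1.64 and 1.54) lie just below the line and the other 5 genes further below it; rescaled, PHOX2A and ISL1 lie above it by 0.13 and 0.10 and the other 5 below it by amounts that start at −0.098 for GATA2.

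To ask whether the knockdowns combined additively, the combined change was compared with the sum of the single changes. In the combined knockdown MYCN stood at −0.51 against siMYCN (limma adjusted p 7.0e-04), and at −0.16 rescaled (limma adjusted p 0.053). HAND2 stood at 0.23 against siHAND2 (limma adjusted p 0.13), and at 0.43 rescaled (limma adjusted p 0.0016). The targets were thus not reduced equally in the single and combined knockdowns, which the sum assumes. The part of this in the interactions was not tested. For PHOX2A the sum was −1.28 and the combined change −1.33, an interaction of −0.05 (SE 0.19, limma adjusted p 0.89; 0.13 rescaled). For ISL1 the sum was 1.64 and the combined change 1.54, an interaction of −0.09 (SE 0.15, limma adjusted p 0.73; 0.10 rescaled). The other 5 members fell short of their sums as deposited, and the median interaction over all genes tested was −0.18 on that scale and −0.0089 rescaled. INSM1 had 0.92 and 0.48, CASZ1 1.35 and 0.89, TBX2 0.40 and 0.08, GATA3 0.26 and −0.08, and GATA2 0.32 and 0.08. Rescaling brought the shortfalls from between −0.47 and −0.24 to between −0.30 and −0.098. No interaction was called for any member on either scale, with 0.355% of all genes called higher and 3.65% lower as deposited and 1.69% and 4.46% rescaled. Without combined replicate 1, however, the interactions of INSM1 (−0.62, adjusted p 0.015) and TBX2 (−0.48, adjusted p 0.033) were called, and without siHAND2 replicate 3 that of CASZ1 (−0.64, adjusted p 0.0495). Among all 12680 genes tested, these fits called 4443 and 707 interactions, against 508 with all samples, so the calls are not particular to the members.

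Other genes of the noradrenergic programme were counted from lists. Of 20 other adrenergic transcription factors, 17 were tested, and 7 were called higher and 1 lower in siMYCN, 7 and 5 in siHAND2, and 7 and 5 in the combined knockdown, with medians of 0.22, 0.08 and 0.07 beside 0.006, −0.14 and −0.28 for all genes tested. Rescaled, the counts were 7 and 1, 8 and 4, and 11 and 4, with medians of 0.23, 0.24 and 0.40 beside 0.014, 0.013 and 0.047. The shares of all genes called higher and lower were 17.4% and 16.3%, 12.3% and 30.4%, and 17.4% and 50.1% as deposited. After rescaling they were 25.4% and 22.4%, 26.0% and 24.8%, and 37.8% and 32.9%. The 6 most abundant were SOX11, SOX4, SATB1, KLF13, KLF7 and DACH1. SOX11 and SOX4, factors of immature neurons, were called higher in all 3 knockdowns, with changes of 0.61, 0.86 and 1.08 for SOX11 and 1.14, 1.14 and 1.30 for SOX4. SATB1 (0.52), KLF13 (0.53) and KLF7 (0.60) were called higher in siMYCN and not in siHAND2 or the combined knockdown as deposited, as TBX2 and GATA3 were. After rescaling all 3 were called higher in the combined knockdown as well, and KLF13 also in siHAND2 (0.23), where TBX2 and GATA3 were not called.

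Of 15 noradrenergic effector genes, which encode enzymes, transporters and granule proteins, 11 were tested. In siMYCN 9 were called higher and 0 lower, in siHAND2 6 and 2, and in the combined knockdown 7 and 3, with medians of 1.20, 0.57 and 0.36. Rescaled, the counts were 9 and 0, 7 and 2, and 7 and 2, with medians of 1.21, 0.72 and 0.70. Of all genes tested, 17.4% were called higher and 16.3% lower in siMYCN, and 12.3% and 30.4% in siHAND2. In the combined knockdown the shares were 17.4% and 50.1%. Rescaled, the shares were 25.4% and 22.4%, 26.0% and 24.8%, and 37.8% and 32.9%. The 2 genes called lower in siHAND2, named after their values were seen, were DBH (−0.92; −0.81 rescaled) and the noradrenaline transporter SLC6A2 (−1.14; −0.99 rescaled), both called higher in siMYCN (by 1.29 and 1.51). TH, which was too low to be tested, had a mean of 1.07 CPM in siHAND2 against 0.120 in siCtrl. In the combined knockdown DBH (−0.92), MAOA (−0.86) and the vesicular monoamine transporter SLC18A2 (−0.46) were the 3 called lower, and SLC18A2 was not called there after rescaling (−0.16). The granins CHGA and CHGB, core proteins of secretory granules, rose in each knockdown, CHGA by 0.36, 0.78 and 0.35 and CHGB by 0.64, 0.82 and 0.47. GAP43, a growth cone protein, rose by 1.79, 2.97 and 4.42, and SCG2, another granin, by 1.60, 1.52 and 2.30. MAOA, which breaks down noradrenaline, rose by 1.21 in siMYCN and had −0.29 in siHAND2 (not called). DDC, the dopamine-forming enzyme, rose by 0.71, 0.57 and 0.35. The interaction was called lower for 7 of the 11 effector genes, on the deposited and the rescaled values alike. It was called lower for 0 of the 7 tested members. Of all genes tested, 3.65% had an interaction called lower as deposited and 4.46% rescaled. The difference between the lists was not tested.

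Among 21 partners and paralogues of the members, 12 were tested, with 1 called higher and 1 lower in siMYCN, 1 and 2 in siHAND2, and 2 and 6 in the combined knockdown (medians 0.06, 0.03 and −0.16). Rescaled, 4 were called higher and 2 lower in each knockdown (medians 0.06, 0.14 and 0.13). Of all genes tested, 17.4% were called higher and 50.1% lower in the combined knockdown as deposited, and 37.8% and 32.9% rescaled. The shares in siMYCN and siHAND2 are those given with the effector genes. LDB1, the adaptor that LIM-homeodomain proteins such as ISL1 bind, rose by 0.31, 0.42 and 0.60. LMO4, a LIM-only protein that competes for LDB1, changed by −0.58 in siHAND2 and −0.28 in the combined knockdown (0.07 rescaled, not called). CHD4 of the NuRD repressor complex was not called in any knockdown as deposited and was called higher in all 3 after rescaling (0.23, 0.32 and 0.33), while HDAC2 (−0.43), KDM1A (−0.39) and RCOR1 (−0.51) were called lower in the combined knockdown, of which RCOR1 alone was called lower after rescaling. Rescaled, KDM1A was called lower in siMYCN (−0.18) and higher in siHAND2 (0.32). HDAC1, less abundant and named after its values were seen, was called lower in all 3 knockdowns on both scales. Its changes were −0.33, −0.57 and −1.17 as deposited and −0.32, −0.41 and −0.84 rescaled. Of 20 mesenchymal transcription factors 11 were tested, with 0 called higher and 2 lower in siMYCN, 3 and 5 in siHAND2, and 3 and 7 in the combined knockdown (medians −0.08, −0.11 and −0.62), and rescaled 1 and 3, 4 and 5, and 3 and 6 (medians −0.07, 0.04 and −0.29). The same shares of all genes apply here. The medians over all genes were 0.006, −0.14 and −0.28 as deposited, and 0.014, 0.013 and 0.047 rescaled. TWIST1, a mesenchymal and neural crest factor, changed by −0.85 in siHAND2 and −0.83 in the combined knockdown, and NR3C1, the glucocorticoid receptor, by −1.12 and −1.80. ID1 and MEF2D rose in those knockdowns, ID1 by 0.57 and 0.45 and MEF2D by 0.53 and 0.63. CREG1 and SIX4 were called lower in siMYCN (−0.44 and −0.68) and in the combined knockdown (−0.78 and −0.62).

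Markers of other cell types moved with the groups in part. The summed CPM of 8 mesenchymal markers, mostly VIM, was 264 to 293 with siCtrl, 220 to 269 with siMYCN, 127 to 154 with siHAND2 and 73.5 to 133 with both siRNAs, with DCN at or below 3 reads in all samples. The other sums were low. For 6 Schwann precursor markers they were 1.79 to 1.92 CPM with siCtrl, 2.93 to 3.63 with siMYCN, 2.28 to 2.55 with siHAND2 and 2.85 to 3.54 with both siRNAs, so each knockdown lay above siCtrl, with FOXD3 at or below 3 reads throughout. For 4 endothelial markers they were, in the same order, 0.606 to 0.890, 2.09 to 2.88, 0.949 to 1.45 and 1.19 to 1.95 CPM, likewise above siCtrl in every knockdown, with PECAM1 at or below 3 reads. For 4 adrenocortical markers they were 0.633 to 0.867, 0.918 to 1.56, 1.18 to 1.52 and 1.09 to 1.27 CPM, again above siCtrl, with CYP11A1, CYP17A1 and NR5A1 at or below 3 reads. For 4 leukocyte markers they were 0.441 to 0.889, 0.669 to 0.871, 0.443 to 0.743 and 0.843 to 0.985 CPM, with CD3E at or below 3 reads, and each knockdown overlapped siCtrl. The part of any of these in the members' changes was not tested.

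The genes whose pattern was most like a member's were ranked by Pearson r over the 12 samples on rescaled log2 values, among 10187 genes with a mean of at least 5 CPM. The samples form 4 groups, so r mostly reflects the group means, and it is a description only. PHOX2A was followed most closely by RASL11B (r 0.99), ADD3 (0.99) and GFRA2 (0.98). GFRA2, a receptor for the growth factor neurturin, had group means of 158, 273, 53.9 and 68.9 CPM in siCtrl, siMYCN, siHAND2 and the combined knockdown. ISL1 was followed by RPRM, PRDM8 and WIPI1 (r 0.998, 0.995 and 0.995), and RPRM had 1.92, 6.93, 17.4 and 43.7 CPM. INSM1 was followed by DLL3, FZD7 and CABP7 (r 0.98 each), and DLL3, a Notch ligand of neuroendocrine cells, had 26.2, 29.8, 66.8 and 57.9 CPM. CASZ1 was followed by DLC1 (0.97), ICK (0.96) and HCN4 (0.96). TBX2 was followed by ARHGEF40 (0.99), PIP4K2B (0.98) and ENPP2 (0.98), and ENPP2, which encodes autotaxin, had 18.1, 52.0, 11.2 and 22.7 CPM. GATA3 was followed by SHISA6 (0.96), TENM4 (0.96) and ST8SIA2 (0.94). For GATA2 the leading genes were KIAA2013 (0.90), FOSL2 (0.88) and TADA2B (0.88). Among the members themselves, on the same scale and with the same 12 samples, INSM1 and CASZ1 (r 0.88), ISL1 and CASZ1 (0.89), ISL1 and INSM1 (0.85) and GATA3 and TBX2 (0.85) were most alike, and PHOX2A and INSM1 were most opposed (−0.88).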

How the data were processed

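RNA from 12 samples of IMR32 cells was sequenced. The authors deposited CPM values for 27514 genes, with a constant of 0.0001 added to every value, which was subtracted here. Per the submitters' processing notes STAR 2.5.1 and Partek were used with hg19 (GRCh37); the counting tool, annotation, strand setting and filters are not given in the sources used here. Samples were grouped by title. Depth was estimated from the smallest CPM step; 88.7% to 90.6% of values under 20 reads were whole within 0.05 reads, too few to treat them as counts. Intervals and floors cover counting error only.

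Values were analysed as log2(CPM + 1), a scale that understates the change of low genes, and 12680 genes whose CPM averaged 1 or more were tested. limma 3.58.1 (lmFit, eBayes with trend) in R 4.3.3 was fitted to the 4 groups with 8 residual degrees of freedom, and two-sided p-values were adjusted by Benjamini-Hochberg over all genes tested. The fit was tested on simulated data. For rescaling, a sample's values were divided by the median of their ratios to the geometric mean of genes averaging 5 CPM or more, which left 12693 genes tested. Single values were compared by exact permutation tests (scipy 1.17.1). Exon lengths and overlaps came from GENCODE release 44 on GRCh37, and the 250-base windows from RefSeq on GRCh38.p14. Windows were found for 5 of the 8 members. TBX2, INSM1 and CASZ1 had none.

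The named genes are the 8 members, both targets, up to 6 genes per list with the highest mean CPM, and the 3 genes with the highest r per member. TH, DBH, STMN2, ELAVL4, VIM, DCN and overlapping genes are named as markers or overlaps. The members and lists were chosen with earlier results of these data known. Alternatives were no filter or a stricter one (CPM averaging 5), another pseudocount (0.1), rescaling by the median ratio or to the sum, a replicate block, only the compared groups, no trend, and leaving out each replicate. Deviations of same-numbered samples correlated at −0.192 to 0.44, over 0.1 in 11 of 18 pairs. In siMYCN against siCtrl (0.147 to 0.44) and against siHAND2 (0.137 to 0.33) every pair was over 0.1, so there the numbers were taken to pair the samples. In the other comparisons they were not. Among these is siHAND2 against siCtrl (−0.0737 in replicate 2), although numbers that pair both with siMYCN would pair them too. Unless a block is named, the p-values use no pairing: limma was fitted without a block and the permutation tests were unpaired. TBX2 to INSM1 and PHOX2A to HAND2 ratios, SLC6A2, SLC18A2 and HDAC1 were added after their values were seen.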

Additional observations from a re-analysis of the deposited data

How the results depend on the processing

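Over 49 member comparisons under up to 21 alternative fits, 940 values kept their direction and side of the threshold, 22 lost and 21 gained a call, and 25 changed sign; the cause was not tested. The counts that moved by over 1.5 times were these. Genes called in siMYCN against siCtrl (4273) numbered 6474 when rescaled with the replicate block and 6963 with only the compared groups fitted, and in siMYCN against siHAND2 (4443) 6730 with only the compared groups. Interaction genes (508) numbered 154 with no filter, 780 rescaled by the median ratio, 797 rescaled to the sum, 1282 with the replicate block, 1264 with both, and 263 to 4443 with a replicate left out, the lowest without siMYCN replicate 2 and the highest without combined replicate 1. Members called in the combined knockdown against siCtrl (4) were 7 when rescaled by the median ratio, with or without the block. Against siHAND2 (4) they were 2 with no filter or with only the compared groups, and 2 to 4 with a replicate left out. For the interaction (0) they were 0 to 2. The sign changed on rescaling by the median ratio (alone or with the block) and to the sum for GATA3 in the combined knockdown (0.27 and 0.26), CASZ1 in combined against siHAND2 (0.00099 and 0.016), and the interactions of ISL1 (0.10 and 0.064) and PHOX2A (0.13 and 0.098). With a replicate left out, GATA2 ranged from −0.024 to 0.16 in siMYCN, −0.062 to 0.31 in the combined knockdown, −0.11 to 0.27 in combined against siMYCN and −0.34 to 0.038 in combined against siHAND2. GATA3 ranged from −0.16 to 0.025 and TBX2 from −0.075 to 0.28 in the combined knockdown, the PHOX2A interaction from −0.23 to 0.13, and the log2 difference of the PHOX2A/HAND2 ratio between the combined knockdown and siMYCN from −0.034 to 0.16. The replicate block, a hint from the numbers and not from the design (in 11 of 18 comparisons of a sample with another group the same number correlated best), added the TBX2 call in siHAND2 (adjusted p 0.024; 0.034 with rescaling by the median ratio) and took away no member's call as deposited; it changed no member's call in siMYCN against siCtrl or against siHAND2, where the numbers were taken to pair the samples. TFAP2B, at or under 2 reads in every sample, is limited by depth.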
